A study of Mus musculus with 8 samples.

Results

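Antigen presentation by the major histocompatibility complex (MHC) was examined in mouse lung through 46 genes of 19937 measured. The members were the 29 genes with a single annotated symbol that starts with H2-, the prefix of the mouse MHC, and 17 named partners: Tap1, Tap2, Tapbp, Tapbpl, Psmb8, Psmb9, Psmb10, Psme1, Psme2, B2m, Nlrc5, Ciita, Cd74, Erap1, Calr, Canx and Pdia3. The study measured RNA from whole, untreated lungs of 8 mice at postnatal day 21, 4 labelled as beta-catenin stabilized and 4 as beta-catenin knockout, with 1 Affymetrix array per mouse. Beta-catenin carries the canonical Wnt signal into the nucleus and also links cadherins at cell junctions. The labels do not say which cells carried either allele, what promoter drove recombination or which exons were altered. Lungs of unmodified mice were not analysed here, and each difference is stabilized minus knockout.

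Values are log2 expression, which has no absolute unit, and a difference of 1 is a 2-fold difference. A gene was called at an adjusted p under 0.05 over all genes (limma, Benjamini-Hochberg), and "rose" and "fell" are kept for called genes. Errors of differences are limma standard errors (SE) with n = 4 per group. Over all genes 4.96% fell and 4.65% rose in stabilized lungs, and 16.9% had groups that did not overlap. Array medians lay between 5.97 and 6.03. The labels describe all mice as male, yet Xist, an RNA normally made only in female cells, lay between 10.36 and 10.59 in stabilized replicates 1 and 4 and in replicates 1 and 3 of the knockout, and between 4.18 and 4.62 in the remaining 4 arrays. Each group held 2 arrays of each kind, and the called members are also given within each kind.

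MHC class I molecules show peptides made inside the cell to CD8 T cells. Their peptides are cut by the proteasome, whose immune form holds the subunits Psmb8, Psmb9 and Psmb10, carried into the endoplasmic reticulum by the Tap1 and Tap2 transporter, and loaded onto a heavy chain paired with B2m. MHC class II molecules show peptides from endosomes to CD4 T cells, are guided there by the invariant chain Cd74, and receive their peptide through H2-DM, which H2-DO (the H2-Oa and H2-Ob chains) holds back. Nlrc5 is the transactivator of class I genes and Ciita that of class II genes. In the lung class II genes are expressed by B cells, dendritic cells, macrophages and alveolar type 2 cells, while H2-DO is known mainly from B cells and some dendritic cells.

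Of the 46 members, 10 fell in stabilized lungs, 1 rose and 35 were not called. The share that fell was 21.7% of members, beside the 4.96% of all genes, and the share that rose was 2.17%, beside 4.65%. The members that fell were H2-Ob, H2-Oa, H2-Q4, H2-T10, H2-M3, H2-M5, H2-Q5, Tap1, Psmb9 and Nlrc5, and the member that rose was H2-T24. The median member difference was -0.16, against -0.01 over all genes, and 34 members were below 0 and 12 above it. The groups did not overlap for 13 members, which is 28.3% of them, beside 16.9% of all genes. Of the members, 10 had a mean under 5 over the 8 arrays, where differences of array signals are compressed, and none of these was called by limma, although 2 had an unadjusted p under 0.05.

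**Figure D1:**
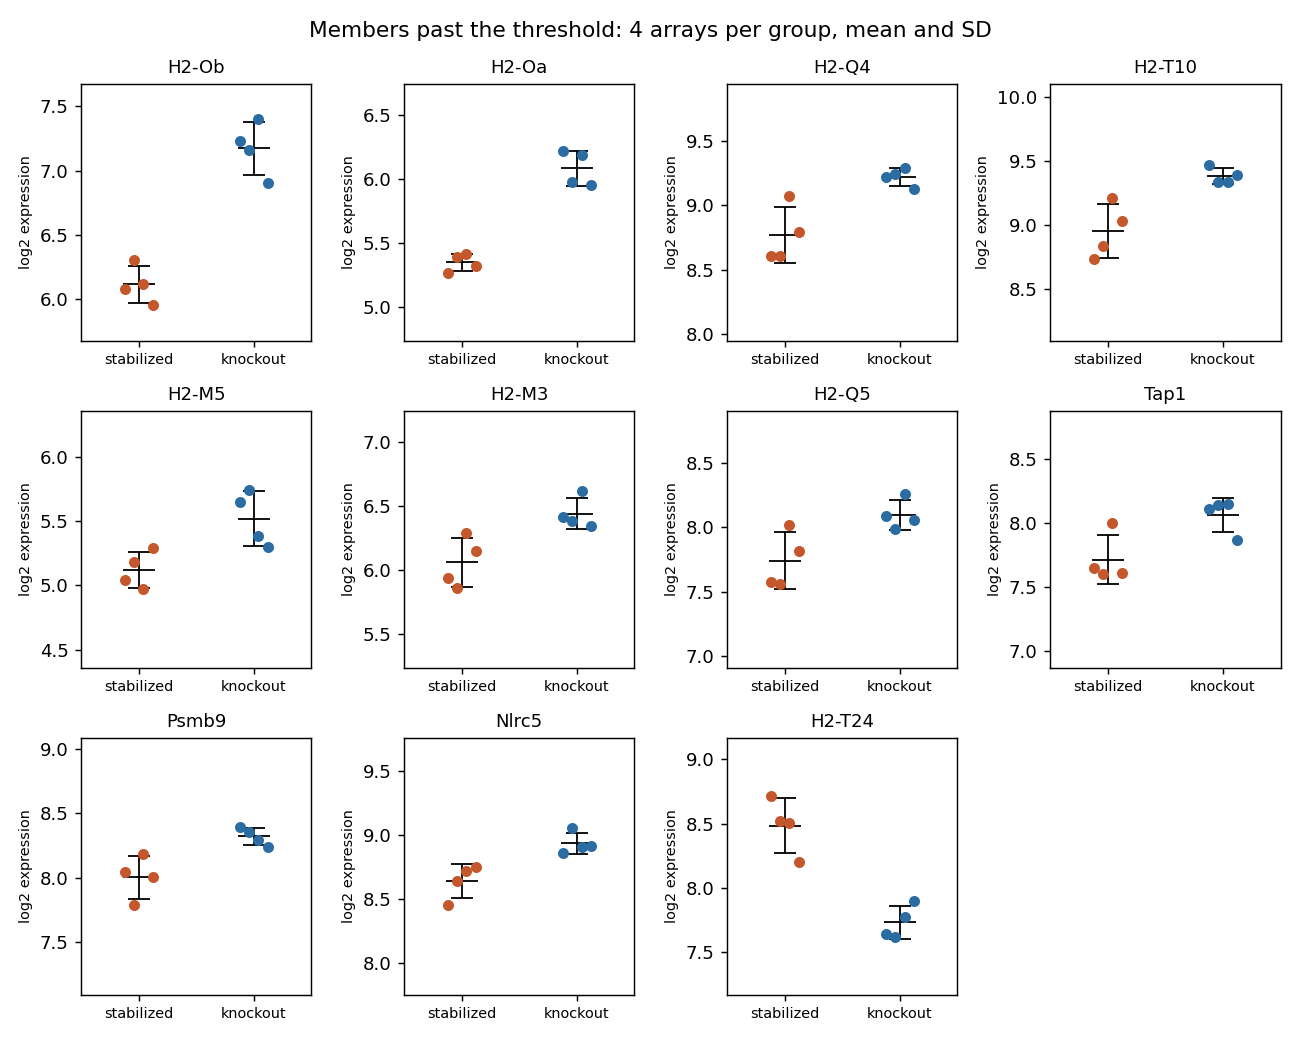
Log2 expression of the 11 called members in each array, with 1 point per array and bars for the mean and SD of each group, stabilized (orange) left of knockout (blue). H2-T24 is the only one of the 11 that is higher in stabilized lungs, and the groups overlap for H2-Q5 and Tap1.

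**Figure D2:**
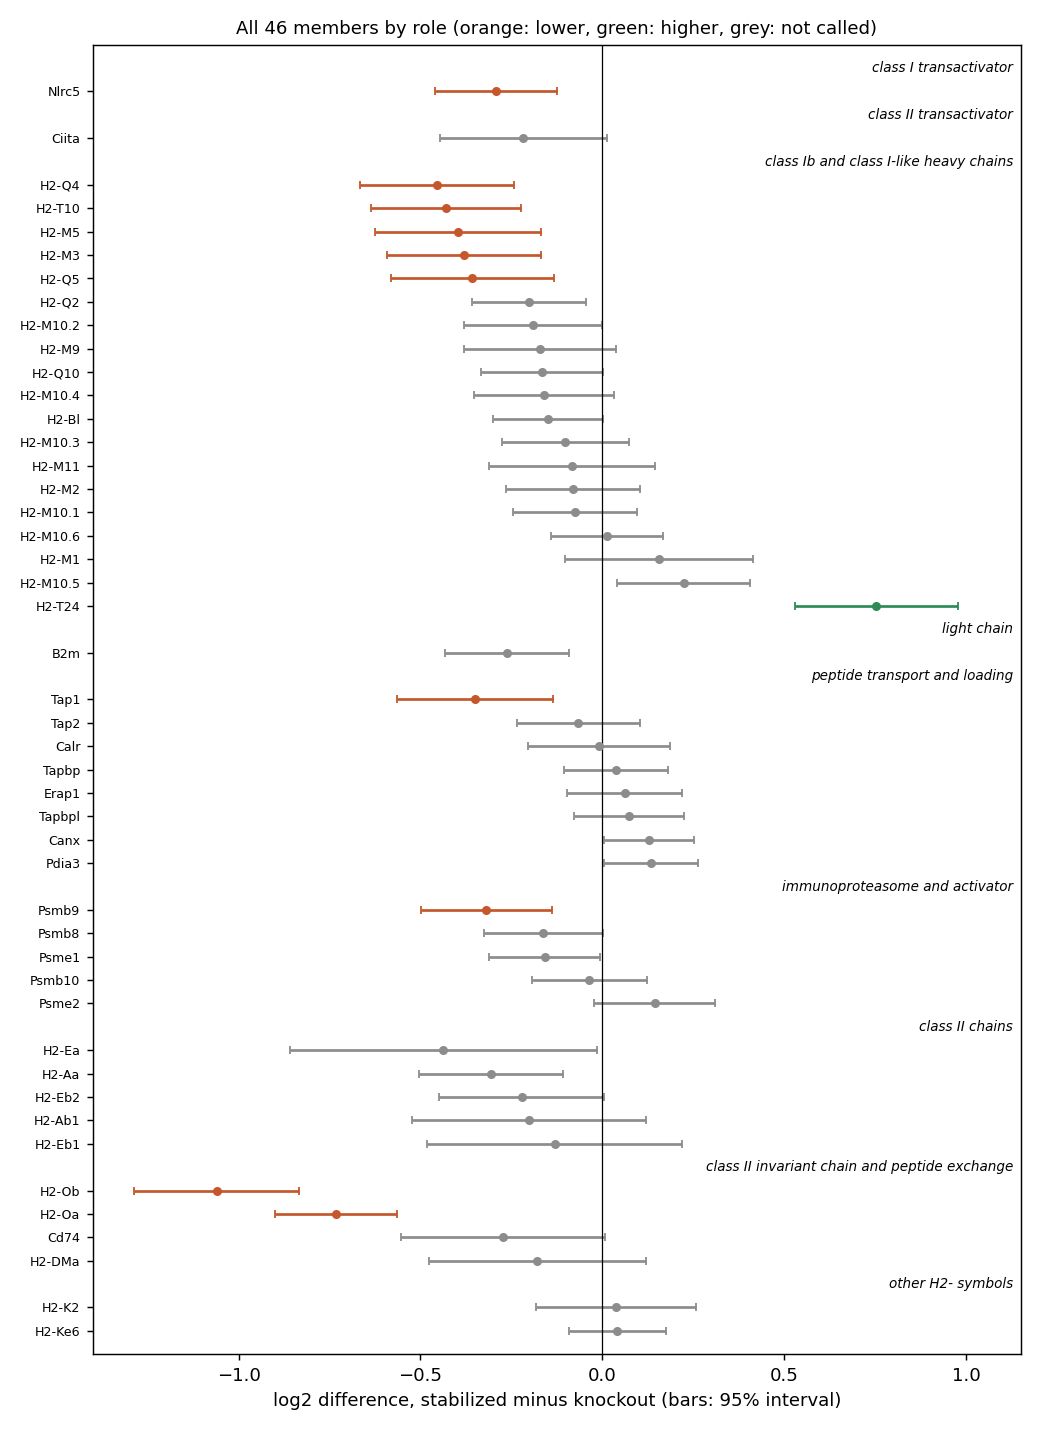
Differences of all 46 members, stabilized minus knockout on the log2 scale, with 95% confidence intervals from limma, grouped by role. The intervals of H2-Ob, from -1.29 to -0.83, and H2-Oa, from -0.90 to -0.56, lie farthest below 0, and that of H2-T24, from 0.53 to 0.98, farthest above it.

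Promoters are shown for the members that fell and have a window in the table, other than Psmb9, whose window largely repeats that of Tap1, and for H2-Aa, a class II chain that was not called. Each is the RefSeq window (GRCm38.p6) from 250 bases before to 50 after the transcription start, written along the gene's strand, with every match to 4 motifs in capitals. The Y box core CCAAT (or on the other strand ATTGG) and the X2 box core TGACGNNA are letters of the conserved promoter module through which Nlrc5 and Ciita are recruited to MHC genes. H2-Oa lies at chr17:34092129-34092428 (plus strand), H2-Ob at chr17:34238655-34238954 (plus), H2-Aa at chr17:34287774-34288073 (minus), H2-Q4 at chr17:35379367-35379666 (plus), Tap1 at chr17:34187306-34187605 (plus), H2-M3 at chr17:37269984-37270283 (plus) and H2-M5 at chr17:36989484-36989783 (minus).
H2-Oa: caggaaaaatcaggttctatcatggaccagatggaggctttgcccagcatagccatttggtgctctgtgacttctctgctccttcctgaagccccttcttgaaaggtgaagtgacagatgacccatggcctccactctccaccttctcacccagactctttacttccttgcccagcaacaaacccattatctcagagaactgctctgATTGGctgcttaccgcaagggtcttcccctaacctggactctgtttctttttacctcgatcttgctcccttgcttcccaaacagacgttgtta
H2-Ob: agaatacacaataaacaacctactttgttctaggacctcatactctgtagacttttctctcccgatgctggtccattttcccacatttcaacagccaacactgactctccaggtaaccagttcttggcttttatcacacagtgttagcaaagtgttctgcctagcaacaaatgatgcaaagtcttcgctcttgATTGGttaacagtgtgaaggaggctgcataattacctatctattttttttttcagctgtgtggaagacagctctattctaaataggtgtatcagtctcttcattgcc
H2-Aa: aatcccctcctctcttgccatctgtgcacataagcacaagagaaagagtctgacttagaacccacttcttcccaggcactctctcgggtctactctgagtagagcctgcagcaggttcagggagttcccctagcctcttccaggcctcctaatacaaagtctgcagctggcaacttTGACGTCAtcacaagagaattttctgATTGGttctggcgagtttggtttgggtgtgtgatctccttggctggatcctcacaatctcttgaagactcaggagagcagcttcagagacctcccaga
H2-Q4: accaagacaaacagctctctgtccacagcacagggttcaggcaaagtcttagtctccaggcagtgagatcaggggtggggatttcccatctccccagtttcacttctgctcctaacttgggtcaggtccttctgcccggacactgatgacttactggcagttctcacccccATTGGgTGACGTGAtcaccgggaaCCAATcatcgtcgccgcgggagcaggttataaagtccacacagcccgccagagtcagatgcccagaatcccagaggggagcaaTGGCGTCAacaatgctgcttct
Tap1: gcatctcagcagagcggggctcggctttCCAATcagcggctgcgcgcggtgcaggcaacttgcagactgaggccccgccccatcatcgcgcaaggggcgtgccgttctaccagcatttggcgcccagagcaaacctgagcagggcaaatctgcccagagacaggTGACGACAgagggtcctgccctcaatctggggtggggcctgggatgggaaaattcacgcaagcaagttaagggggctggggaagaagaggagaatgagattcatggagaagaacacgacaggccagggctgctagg
H2-M3: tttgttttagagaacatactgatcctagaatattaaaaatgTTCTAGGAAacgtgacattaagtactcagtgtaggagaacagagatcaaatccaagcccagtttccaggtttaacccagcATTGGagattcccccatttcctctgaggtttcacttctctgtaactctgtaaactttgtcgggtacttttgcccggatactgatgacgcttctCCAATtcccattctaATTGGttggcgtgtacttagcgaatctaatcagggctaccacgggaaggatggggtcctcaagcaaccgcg
H2-M5: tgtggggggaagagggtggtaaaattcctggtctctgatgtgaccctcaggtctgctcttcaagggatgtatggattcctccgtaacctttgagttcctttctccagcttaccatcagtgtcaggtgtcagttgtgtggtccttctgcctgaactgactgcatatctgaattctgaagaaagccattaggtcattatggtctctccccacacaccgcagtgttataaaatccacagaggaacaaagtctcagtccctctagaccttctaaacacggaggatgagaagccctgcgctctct
The Y box core stands 43 bases before the start in H2-Oa and 57 before it in H2-Ob. H2-Aa has the Y box core 48 bases and the X2 core 74 bases before its start. H2-Q4 has Y box cores 79 and 55 bases and an X2 core 73 bases before its start, with a further X2 core 28 bases after it. Tap1 has a Y box core 222 bases and an X2 core 86 bases before its start. H2-M3 has Y box cores 129, 36 and 21 bases before its start and a gamma-activated site 209 bases before it, while the window of H2-M5 holds none of these letters. Tap1 and Psmb9 are transcribed away from each other from starts 226 bases apart, and their windows share 275 bases. Windows were found for 34 of the 46 members, 37 windows in all. The Y box core was present in 75.7% of these windows and in 37.4% of all 32851 windows of the table, and the X2 core in 18.9% and 6.6%. The interferon-stimulated response element (TTTC, a pair of any bases, then TTTC again) was in 8.1% of member windows and 3.4% of all, and the gamma-activated site (TTCNNNGAA) in 8.1% and 8.3%. Both strands were searched. The member windows are not independent: H2-M9 and Psme2 each enter with overlapping windows, as do Tap1 and Psmb9 together. Many H2-M windows also hold closely similar sequence. A match describes letters in the window and not a bound factor.

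The chains of H2-DO, which restrain peptide exchange on class II molecules, fell most among the members, each gene taken at its brightest probe set; of the 19 Nlrc5 probe sets, 7 differed by more than H2-Oa. H2-Ob had 6.08, 6.30, 6.12 and 5.95 log2 units in stabilized replicates 1 to 4, against 7.23, 7.17, 7.40 and 6.90 in knockout replicates 1 to 4. Every stabilized array lay below every knockout array, and the difference was -1.06 ± 0.10 (adjusted p = 5.03e-05), a level 2.09-fold lower. H2-Oa had 5.26, 5.39, 5.42 and 5.32 in stabilized lungs and 6.22, 5.97, 6.18 and 5.95 in knockout lungs. Again the groups did not overlap, and H2-Oa fell by 0.73 ± 0.08 (adjusted p = 8.31e-05), or 1.66-fold. Both stayed called under all 19 alternatives tried. The mean of probe sets, 1 of these, could not change their values, because each has 1 probe set. The calls held within the arrays of low Xist, where H2-Ob differed by -0.82 and H2-Oa by -0.56. They also held within the arrays of high Xist, at -1.30 for H2-Ob and -0.91 for H2-Oa.

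Markers of several cell types were lower beside H2-DO. All 9 measured B cell markers fell, with a median of -0.97, and their summed unlogged level ranged from 390 to 410 in stabilized lungs and from 793 to 1090 in knockout lungs. Of 10 dendritic cell markers 5 fell (Flt3, Clec9a, Itgae, Cd209a and Ccr7) and none rose, with summed levels of 879 to 946 in stabilized lungs and 956 to 1205 in knockout lungs. Of 11 T and NK cell markers 10 fell (median -1.23), as did 5 of 5 airway secretory markers (median -1.70) and 4 of 5 ciliated markers (median -0.90), while 4 of 6 neutrophil markers rose (median 0.66). Knockout replicate 4 had the lowest mean of the knockout arrays for the B cell, T and NK cell and dendritic cell markers, as for H2-Ob and H2-Oa. Among stabilized arrays the B cell markers were lowest in replicate 2, in which H2-Ob was highest. The part of any of these cell types in the H2-DO result was not tested. In whole lung fewer cells of a type and less RNA per cell cannot be told apart.

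No conventional class II chain was called, although all 5 had differences below 0, from -0.44 to -0.13. By limma 0 of 5 passed the adjusted threshold and 2, H2-Aa and H2-Ea, had an unadjusted p under 0.05. H2-Aa, the alpha chain of the I-A molecule, had 10.32, 10.26, 10.44 and 10.22 in stabilized lungs and 10.66, 10.61, 10.82 and 10.37 in knockout lungs. Only knockout replicate 4 lay within the stabilized range, and the difference of -0.31 ± 0.09 missed the threshold (adjusted p = 0.0559). It was called under 6 of the 19 alternatives. Its partner H2-Ab1 had 10.36, 10.04, 10.69 and 10.28 in stabilized lungs and 10.57, 10.29, 10.93 and 10.38 in knockout lungs, a difference of -0.20 ± 0.15 (adjusted p = 0.44). Here the range within each group, 0.650 for stabilized and 0.641 for knockout lungs, was larger than the difference.

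H2-Eb1, the beta chain of the I-E molecule, had 10.06, 9.70, 10.25 and 9.96 in stabilized lungs and 9.95, 9.75, 10.60 and 10.19 in knockout lungs, with overlapping groups and a difference of -0.13 ± 0.16 (adjusted p = 0.667). H2-Ea, which RefSeq lists as a transcribed pseudogene, had 4.06, 3.97, 4.28 and 4.17 in stabilized lungs and 5.09, 4.91, 4.14 and 4.09 in knockout lungs. Knockout replicates 1 and 2 were high, knockout replicates 3 and 4 lay among the stabilized arrays, and the difference was -0.44 ± 0.19 (adjusted p = 0.187). This knockout range, 0.995, was the widest within a group among the members at their brightest probe set. H2-Eb2, a further class II beta chain, differed by -0.22 ± 0.10 (adjusted p = 0.214).

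The invariant chain Cd74 had 10.79, 10.57, 11.09 and 10.72 in stabilized lungs and 11.19, 10.95, 11.35 and 10.77 in knockout lungs. The groups overlapped, and the difference was -0.27 ± 0.13 (adjusted p = 0.214). H2-DMa, a chain of the peptide exchange factor, had 7.29, 6.89, 7.47 and 7.07 in stabilized lungs and 7.43, 7.32, 7.66 and 7.04 in knockout lungs, a difference of -0.18 ± 0.14 (adjusted p = 0.463). Ciita had 6.40, 6.63, 6.81 and 6.53 in stabilized lungs and 6.94, 6.87, 6.90 and 6.53 in knockout lungs. Knockout replicate 4 lay below the other knockout arrays, within the stabilized range, and the difference was -0.22 ± 0.11 (adjusted p = 0.231). Cd74 differed by -0.52 (adjusted p = 0.0364) between the arrays of high Xist and by -0.03 between those of low Xist. The test of the difference between these contrasts called none of the 46 members (limma, lowest adjusted p = 0.995, unadjusted p under 0.05 for 4). The 4 were H2-Ob, H2-Oa, Ciita and Cd74, each with the lower difference between the arrays of high Xist. H2-Aa, H2-Ab1 and H2-DMa differed by -0.47, -0.43 and -0.36 there. Between the arrays of low Xist they differed by -0.14, 0.03 and 0.005, and none of these was called.

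For 6 class II genes the same arrays were often highest or lowest in their group. Over H2-Aa, H2-Ab1, H2-Eb1, Cd74, H2-DMa and Ciita, stabilized replicate 3 was the highest stabilized array for 6 of the 6 genes and stabilized replicate 2 the lowest for 4. Among knockout arrays replicate 3 was highest for 5 of the 6, and replicate 4 was lowest for 4. H2-Eb2, H2-Ob, H2-Ea and H2-Oa shared this order in part, each with knockout replicate 4 lowest. For H2-Eb2 and H2-Ob knockout replicate 3 was highest, but stabilized replicates 4 and 2 were highest. For H2-Ea and H2-Oa stabilized replicate 3 was highest, but so was knockout replicate 1 in its group. The order was not limited to class II. Over all 46 members stabilized replicate 3 was the highest stabilized array for 29 and stabilized replicate 2 the lowest for 23. Knockout replicate 4 was the lowest knockout array for 19. These counts were not made over all genes, so whether the order is particular to the members was not tested. Without stabilized replicate 3, 11 members fell, without stabilized replicate 2, 4 fell, and without knockout replicate 4, 9 fell.

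**Figure D3:**
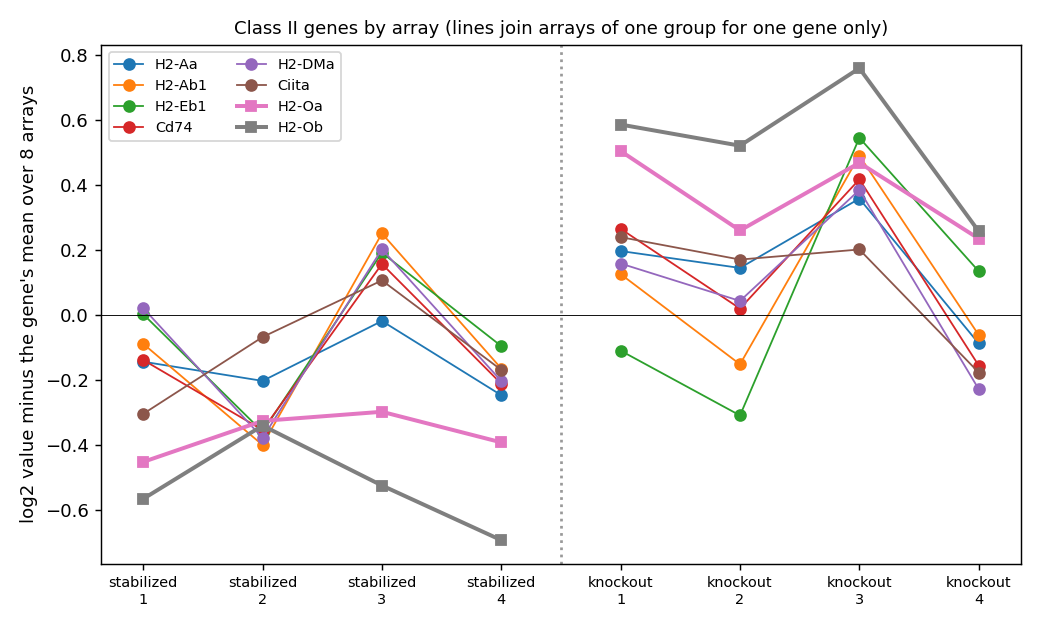
Log2 expression of 8 class II pathway genes in each array after subtracting each gene's mean over the 8 arrays, stabilized arrays left of knockout arrays; lines join the values of 1 gene within a group and imply no order. H2-Oa and H2-Ob (squares) lie lower in all stabilized arrays than in any knockout array, while the groups overlap for the other 6 genes, for each of which stabilized replicate 3 is the highest stabilized array.

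Among markers of other cells that express class II genes some rose and none fell. Of 10 macrophage and monocyte markers 3 rose and 7 were not called, of which Siglecf differed by -0.18 and Marco by -0.15, with summed levels of 2458 to 2742 in stabilized lungs and 1998 to 2296 in knockout lungs. Of 8 alveolar type 2 markers 6 rose and Sftpc and Sftpb were not called, with overlapping summed levels of 24561 to 27626 in stabilized lungs and 22397 to 24762 in knockout lungs. The part of these shifts in the class II values was not tested.

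Nlrc5, the class I transactivator, was lower in stabilized lungs on every probe set. The array holds 19 Nlrc5 probe sets, and in a fit over all 34760 probe sets, of which 2.61% fell, 11 of the 19 fell and none rose. All 19 differences were below 0, from -1.06 to -0.17 with a median of -0.59. The groups did not overlap for 15 probe sets (78.9%), beside 16.9% of all genes at their brightest probe set. This share was not counted over all probe sets. Of the 8 that were not called, the lowest adjusted p was 0.0593. These probe sets read 1 transcript locus in the same 8 RNA samples, so they are repeated readings and not replicates.

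The probe set with the largest difference, the twelfth by identifier, had 6.56, 7.09, 7.59 and 6.99 in stabilized lungs and 8.36, 8.06, 8.12 and 7.94 in knockout lungs. The groups were apart, and the difference was -1.06 ± 0.19 (adjusted p = 0.0181 over all probe sets). The brightest probe set, which stands for Nlrc5 among the genes, had 8.46, 8.64, 8.72 and 8.75 in stabilized lungs and 8.86, 9.05, 8.91 and 8.92 in knockout lungs. It too had groups that did not overlap, but a smaller difference of -0.29 ± 0.08. It was called over genes (adjusted p = 0.0326) and not over all probe sets (adjusted p = 0.0847). Within the gene fit it differed by -0.31 between arrays of low Xist and by -0.28 between those of high Xist, called in neither (adjusted p = 0.257 and 0.293). No Nlrc5 probe set was called between the 4 arrays of low Xist or between the 4 of high Xist (limma), where 14 and 15 of the 19 had an unadjusted p under 0.05 and all 19 stayed below 0.

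**Figure D4:**
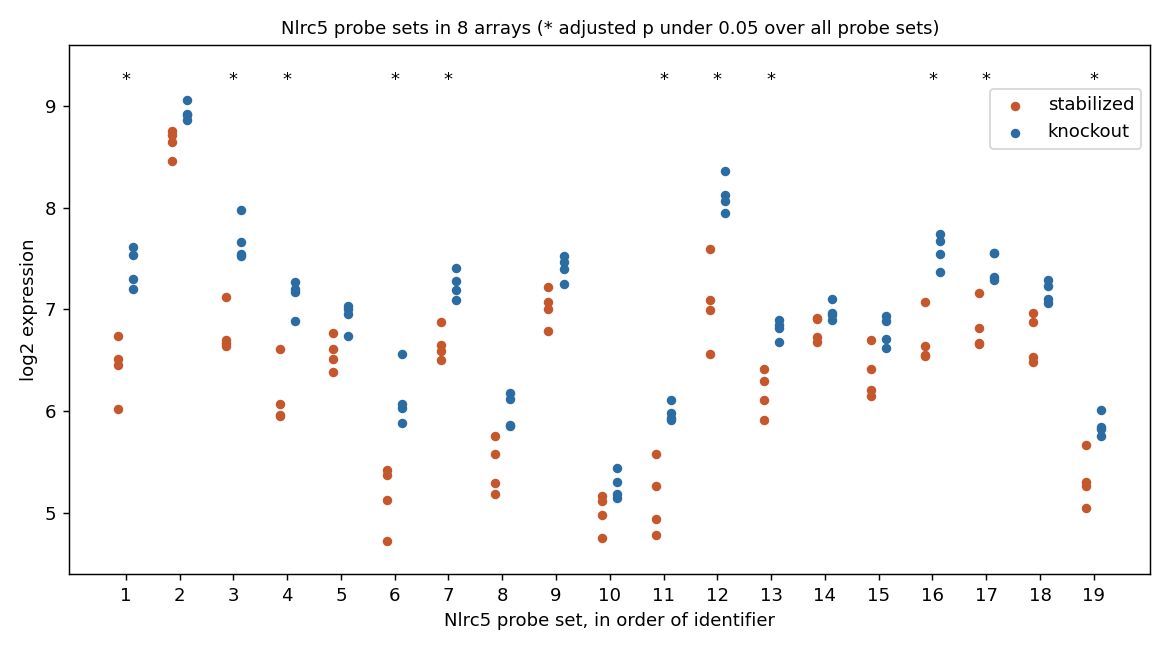
Log2 expression of the 19 Nlrc5 probe sets, in order of identifier, with 1 point per array, stabilized (orange) left of knockout (blue); stars mark the 11 called over all probe sets. The groups do not overlap for 15 of the 19 (78.9%, beside 16.9% of all genes), and the second probe set, the brightest, has a difference of -0.29.

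Of the 19 class Ib and class I-like heavy chains, 5 fell, 1 rose and 13 were not called, with a median of -0.16. The classical chains H2-K1 and H2-D1 have no value here, because they share their probe sets with other symbols, as do 13 H2 symbols in all on 8 such probe sets. The same closeness of sequence means that a probe set named for 1 class I gene may also read its relatives.

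H2-Q4 had 8.60, 8.61, 9.07 and 8.79 in stabilized lungs and 9.22, 9.25, 9.29 and 9.13 in knockout lungs. The groups did not overlap, and H2-Q4 fell by 0.45 ± 0.10 (adjusted p = 0.0114), or 1.37-fold. H2-T10, whose product is known as a ligand of some gamma delta T cells in mice and which RefSeq lists as a transcribed pseudogene, had 8.73, 8.84, 9.21 and 9.04 in stabilized lungs and 9.47, 9.34, 9.34 and 9.39 in knockout lungs. It fell by 0.43 ± 0.10 (adjusted p = 0.0135), again without overlap. Both stayed called when any 1 array was left out. Between the arrays of low Xist neither was called, with -0.35 (adjusted p = 0.36) for H2-Q4 and -0.34 (adjusted p = 0.32) for H2-T10. Between those of high Xist H2-Q4 was called at -0.56 (adjusted p = 0.0312) and H2-T10, at -0.52, was not (adjusted p = 0.0719).

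H2-M3, which presents peptides with a formylated start such as those of bacteria, had 5.94, 5.86, 6.29 and 6.15 in stabilized lungs and 6.41, 6.38, 6.62 and 6.34 in knockout lungs. The groups were apart by a small margin, and H2-M3 fell by 0.38 ± 0.10 (adjusted p = 0.0283). H2-M5 had 5.04, 5.18, 4.97 and 5.29 in stabilized lungs and 5.65, 5.75, 5.38 and 5.30 in knockout lungs. Its highest stabilized array lay just below its lowest knockout array, and it fell by 0.40 ± 0.10 (adjusted p = 0.0329). H2-Q5, also a transcribed pseudogene in RefSeq, had 7.57, 7.56, 8.02 and 7.82 in stabilized lungs and 8.09, 7.99, 8.26 and 8.05 in knockout lungs. Stabilized replicate 3 reached above the lowest knockout array, and the fall of 0.36 ± 0.10 was near the threshold (adjusted p = 0.0478, exact permutation p = 0.0571, two-sided). When the arrays were left out one at a time, H2-M3 and H2-M5 were each called in 3 of 8 fits and H2-Q5 in 1. None of the 3 was called by limma within either kind of array. Between arrays of low Xist H2-M3 differed by -0.29, H2-M5 by -0.44 and H2-Q5 by -0.24 (adjusted p = 0.418, 0.252 and 0.526), and between those of high Xist by -0.47, -0.35 and -0.48 (adjusted p = 0.0814, 0.229 and 0.0806).

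H2-T24, a class I-like gene, moved the opposite way to the other called members. It had 8.71, 8.52, 8.50 and 8.20 in stabilized lungs and 7.64, 7.62, 7.77 and 7.89 in knockout lungs. Every stabilized array lay above every knockout array, and H2-T24 rose by 0.75 ± 0.10 (adjusted p = 0.000609), or 1.69-fold. It stayed called whichever array was left out, and within the arrays of low Xist it differed by 0.75 (adjusted p = 0.0179). Within those of high Xist the difference was also 0.75, with an adjusted p of 0.0546. Of the 20 measured genes nearest to it, 10 on each side, none rose by limma and 1, H2-T10, fell, and their differences ran from -0.43 to 0.08.

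The other class I-like chains included H2-Q2, whose groups did not overlap at a difference of -0.20 ± 0.07 (adjusted p = 0.104). The 10 genes of the H2-M1, H2-M2, H2-M9, H2-M10 and H2-M11 families gave differences between -0.19 and 0.22. None of these 10 was called by limma, and 1, H2-M10.5, had an unadjusted p under 0.05. H2-Q10, which encodes a secreted class I protein known from liver, differed by -0.17 ± 0.08 (adjusted p = 0.209). H2-Ke6, which despite its prefix encodes a dehydrogenase, differed by 0.04 ± 0.06, and the transcribed pseudogene H2-K2 by 0.04 ± 0.10.

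B2m, the light chain shared by class I molecules, had 11.53, 11.63, 11.75 and 11.52 in stabilized lungs and 11.78, 11.84, 12.04 and 11.81 in knockout lungs. The groups did not overlap, but the difference of -0.26 ± 0.08 missed the threshold (adjusted p = 0.0571, 95% interval -0.43 to -0.09). B2m was called under 6 of the 19 alternatives.

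Among the genes for peptide supply, Tap1 and Psmb9 fell and the others were not called. Tap1 had 7.65, 7.60, 8.0 and 7.61 in stabilized lungs and 8.11, 8.14, 8.15 and 7.87 in knockout lungs. Stabilized replicate 3 was high and knockout replicate 4 low, so that the groups overlapped, and Tap1 fell by 0.35 ± 0.10 (adjusted p = 0.043, exact permutation p = 0.0571, two-sided). Psmb9, transcribed from the opposite side of the promoter region shown for Tap1, had 8.04, 7.78, 8.18 and 8.0 in stabilized lungs and 8.39, 8.36, 8.29 and 8.24 in knockout lungs. Here the groups did not overlap, and the fall was 0.32 ± 0.08 (adjusted p = 0.0307). With the arrays left out one at a time, each of the pair was called in 2 of 8 fits. Between arrays of low Xist they differed by -0.20 for Tap1 (adjusted p = 0.592) and -0.32 for Psmb9 (adjusted p = 0.37). Between arrays of high Xist the values were -0.50 for Tap1 (adjusted p = 0.0288) and -0.32 for Psmb9 (adjusted p = 0.133).

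Psmb8, another catalytic subunit of the immunoproteasome, had 7.61, 7.49, 7.76 and 7.54 in stabilized lungs and 7.83, 7.74, 7.83 and 7.63 in knockout lungs. The groups overlapped, and the difference was -0.16 ± 0.08 (adjusted p = 0.212). The third catalytic subunit, Psmb10, differed by -0.04 ± 0.07. The subunits of the proteasome activator went in different directions without a call, Psme1 at -0.16 ± 0.07 (adjusted p = 0.186) and Psme2 at 0.14 ± 0.08 (adjusted p = 0.277).

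Of the 8 transport and loading genes Tap1 alone was called, and the median of the 8 was 0.05. The chaperone Canx and the oxidoreductase Pdia3 lay above 0 in groups that did not overlap, at 0.13 ± 0.06 each (adjusted p = 0.185 for each). The transporter subunit Tap2 differed by -0.07 ± 0.08, the loading factors Tapbp by 0.04 ± 0.07 and Tapbpl by 0.07 ± 0.07, the trimming peptidase Erap1 by 0.06 ± 0.07, and the chaperone Calr by -0.01 ± 0.09. The widest 95% interval of these 5, that of Calr, ran from -0.20 to 0.19.

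Interferon, which induces class I genes, Tap1, the immunoproteasome and Nlrc5, was represented by 11 measured response genes. Of these 6 fell (Ifit1, Ifit3, Irf7, Zbp1, Bst2 and Gbp3) and none rose, with a median of -0.40. The groups overlapped for Ifit1 and Irf7. Oas1a (-0.23), Rsad2 (-0.14), Ifit2 (0.004) and Iigp1 (0.03) were not called. Summed levels of the 11 overlapped, at 1646 to 2115 in stabilized lungs and 2048 to 2289 in knockout lungs. Of the 11 T and NK cell markers, whose cells are a source of interferon gamma, 10 fell, with summed levels of 845 to 1136 in stabilized lungs and 1943 to 3100 in knockout lungs. Ifng itself differed by -0.07 and the interferon regulator Irf1 by 0.12, neither of them called. The Ifng means, 4.48 in stabilized and 4.55 in knockout lungs, lay under 5, where differences are compressed. The part of these genes or cells in the class I values was not tested.

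The members on chromosome 17 were set beside the genes that lie between them. The span from the first to the last member holds 164 measured genes, 34 of them members. Of these 34 members 10 were called. Of the 130 other genes 6 were called (4.62%, beside 9.62% of all genes in either direction). These were 3 lower and 3 higher, and the median difference of the 130 was -0.02. Some called members were direct neighbours among the measured genes, Psmb9 beside Tap1 and H2-Q4 beside H2-Q5. From H2-Oa to H2-Ea every measured gene lay below 0, from -1.06 for H2-Ob to -0.03 for Brd2. The neighbours H2-Q2, H2-Q4, H2-Q5 and H2-Q10 also all lay below 0, while H2-T24 stood among neighbours of lower value.

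**Figure D5:**
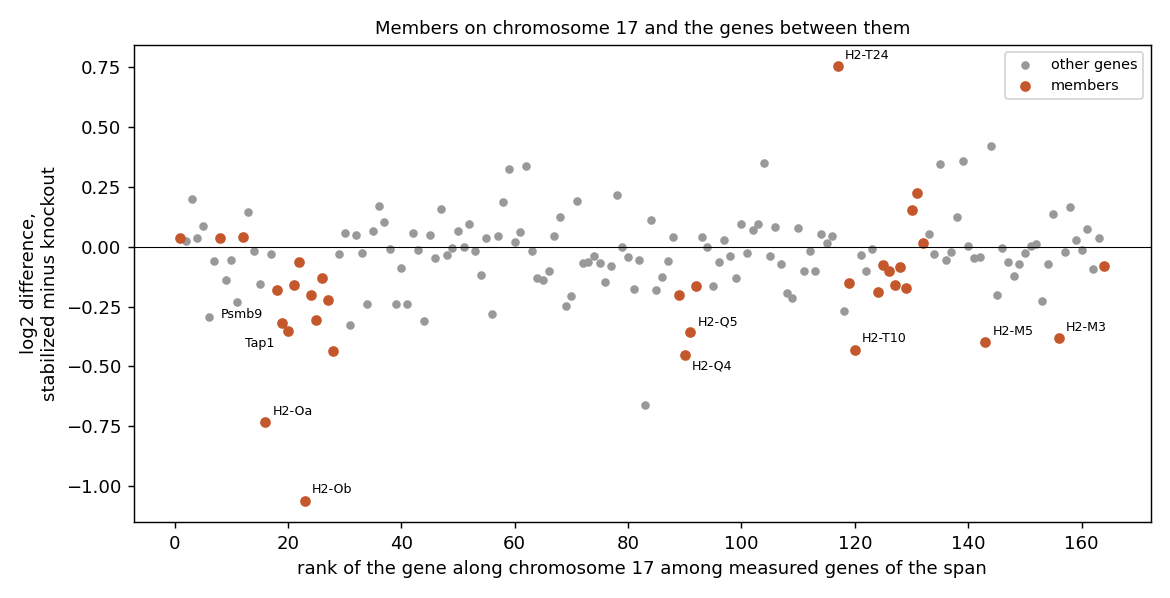
Difference, stabilized minus knockout on the log2 scale, of the 164 measured genes of the MHC span against their rank along chromosome 17, members in orange and other genes in grey. The 9 called members below 0 and H2-T24 above it, at 0.75, are labelled.

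Further genes of antigen processing and recognition were counted from a list of 76, of which 71 were measured. Of the 71, 6 fell (8.45%, beside 4.96% of all genes) and 5 rose (7.04%, beside 4.65%), with a median of 0.03. Cd8a and Cd8b1, the chains of the CD8 coreceptor that binds class I, fell by 1.59 ± 0.19 (adjusted p = 0.000242) and 1.43 ± 0.19 (adjusted p = 0.000608). Klrd1 and Klrc1, the subunits of an NK cell receptor for class Ib molecules, fell by 1.23 ± 0.14 (adjusted p = 0.000138) and 0.51 ± 0.12 (adjusted p = 0.0173). Cd8a, Cd8b1 and Klrd1 were also counted among the T and NK cell markers. The transcription factor Irf8, needed for cross-presenting dendritic cells, fell by 0.52 ± 0.08 (adjusted p = 0.00157), and Marchf1, a ubiquitin ligase that takes class II off the surface, fell by 0.31 ± 0.07 (adjusted p = 0.0174).

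Of the 5 genes that rose, Lilrb4a, an inhibitory myeloid receptor, did so by 0.63 ± 0.12 (adjusted p = 0.00521). The chaperone Hspa5 rose by 0.41 ± 0.07 (adjusted p = 0.00361), and Lgmn, an endosomal protease, by 0.35 ± 0.06 (adjusted p = 0.00458). The proteasome subunit Psma7 rose by 0.34 ± 0.06 (adjusted p = 0.00414) and the proteasome assembly factor Pomp by 0.32 ± 0.09 (adjusted p = 0.0406). Of the 13 genes of the proteasome and its partners on the list, 12 had differences above 0, with a median of 0.17. Among them Psmb5 differed by -0.06, Psmb6 by 0.07 and Psmb7 by 0.20, none of them called. Of the 5 immunoproteasome and activator members 4 lay below 0, with a median of -0.16, and Psmb9 alone was called. Rfxank, a subunit of the factor that binds the X box of class II promoters, differed by -0.23 (adjusted p = 0.0523).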

How the data were processed

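Per the labels' protocols, RNA was purified on spin columns and labelled with biotin. The deposited values are log2 expression, 1 value per probe set and array, made with RMA and affy per the submitters' processing notes, with no versions stated there. RMA normalizes arrays to one distribution, so a change in total RNA would not show, and background in dim probe sets compresses their differences. Of 34760 probe sets, 21640 had 1 symbol in the platform annotation, 1321 had several and 11799 had none; only the first kind was named, and the brightest probe set stood for each of 19937 genes. All 46 members matched the RefSeq gene table by Entrez identifier. Groups were taken from the labels.

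The comparison was fitted with limma 3.58.1 (lmFit and eBayes, R 4.3.3) on all 8 arrays with no covariate or filter, and adjusted by Benjamini-Hochberg. Nlrc5 probe sets were tested in a fit over all probe sets. Marker sums are of unlogged values. Precision is limited by 4 arrays per group, for which the smallest exact permutation p is 0.0286. The script was tested on simulated data. Members, lists, motifs and named genes were chosen with earlier results of these data known: values in every array are given for called members, 12 genes central to both pathways where measured, and the 4 members with the widest range within a group. Alternatives were another normalization, centring, a filter on dim genes, an intensity trend, array weights, the mean of probe sets, Xist as a covariate or a split, the replicate number as a block and leaving out each array. A fit over all probe sets was added after seeing the data. Over all genes, samples with the same number did not deviate together (correlations from -0.005 to 0.084), and the main fit did not pair them. These correlations cannot exclude pairing for single genes. With the number as a block, the SE was smaller for H2-Ab1 (0.06 in place of 0.15) and Cd74 (0.08 in place of 0.13). For H2-T24 it was larger (0.11 in place of 0.10).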

Additional observations from a re-analysis of the deposited data

Results flagged for a closer look

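Among 92 sets of 4 arrays (each member in each group), 5 held an array far from the other 3, by a gap larger than Dixon's 95% critical share of the whole range; about 1 in 20 would be expected by chance. Tap1 was 8.0 in stabilized replicate 3, above 7.60 to 7.65 in the other stabilized arrays, and 7.87 in knockout replicate 4, below 8.11 to 8.15 in the other knockout arrays. Ciita was 6.53 in knockout replicate 4, below 6.87 to 6.94 in the others. H2-M10.6 was 3.76 in stabilized replicate 4, above 3.63 to 3.64, and Erap1 was 8.80 in knockout replicate 1, below 8.83 to 8.84. H2-M10.6 and Erap1 were not called, and their outlying values differ little from the rest.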

How the results depend on the processing

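H2-Oa and H2-Ob were called under all 19 alternatives, H2-T24 and H2-Q4 under 18, H2-T10 under 16, H2-M3, H2-M5 and Nlrc5 under 11, Psmb9 under 10, Tap1 under 9 and H2-Q5 under 6. Of the members only Nlrc5 has more than 1 probe set, so the mean of probe sets left the values of the others unchanged. B2m and H2-Aa, not called, passed under 6 each. With the replicate number as a block, 12 members were lower and 6 Nlrc5 probe sets were called, in place of 10 and 11. Over all probe sets, 3 members were lower (H2-Oa, H2-Ob and H2-Q4). Between the 4 arrays of low Xist, limma called 354 genes in place of 1917, 2 members lower, 0 Nlrc5 probe sets (14 at an unadjusted p under 0.05), and 3 other pathway genes lower and 1 higher. Between the 4 of high Xist it called 670 genes, 5 members lower and 0 higher (1 at an unadjusted p under 0.05), 0 Nlrc5 probe sets (15 unadjusted) and 1 other pathway gene higher. Leaving out 1 array gave 1216 to 1839 genes, 4 to 11 members lower, 1 to 2 higher, 6 to 14 Nlrc5 probe sets, and 5 to 9 other pathway genes lower and 4 to 6 higher. Members lower were 4 without stabilized replicate 1, stabilized replicate 2 or knockout replicate 2, and 5 without knockout replicate 1 or 3. Genes called were fewest without stabilized replicate 1 (1216) and knockout replicate 3 (1235), and Nlrc5 probe sets without knockout replicate 3 (6). Centring arrays on the median put 64.4% of called genes higher, beside 48.4%, and left 8 members lower. Members that turned sign were not called. These were Tapbp (-0.0041 with repeated quantile normalization), Calr (0.0281 centred, 0.0392 with array weights) and Psmb10 (0.0019 centred). Between arrays of low Xist they were Ciita (0.0226), H2-M11 (0.0514), Tapbp (-0.0129), H2-Ab1 (0.0321), H2-Eb1 (0.0036) and H2-DMa (0.0048), and between those of high Xist H2-M10.6 (-0.0061), Erap1 (-0.0059), Calr (0.1061) and H2-K2 (-0.1394). Without 1 array, the ranges that crossed 0 were H2-M11 (-0.1522 to 0.0245), Erap1 (-0.0039 to 0.1029), Calr (-0.0541 to 0.0784), Psmb10 (-0.0662 to 0.0078), H2-M10.6 (-0.0373 to 0.0488), H2-K2 (-0.075 to 0.0909) and H2-Eb1 (-0.255 to 0.0292). The splits hold 2 arrays per group and the fits without 1 array hold fewer arrays; the cause of the other changes was not tested.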

Other observations

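Among the 130 other genes of the MHC span on chromosome 17, 6 were called (4.62%, beside 9.62% of all genes). They are named here after their values were seen. Ltb, which encodes lymphotoxin beta, a lymphocyte cytokine that shapes lymphoid tissue, fell by 0.66 ± 0.09 in stabilized lungs (limma adjusted p = 0.000476). BC051142 fell by 0.33 ± 0.08 (limma adjusted p = 0.0305) and Slc44a4, a transporter of the choline transporter-like family, by 0.28 ± 0.06 (limma adjusted p = 0.0135). The zinc finger gene Zfp57, which acts at imprinted loci, rose by 0.42 ± 0.08 (limma adjusted p = 0.00451), the phosphatase regulator Ppp1r11 by 0.36 ± 0.06 (limma adjusted p = 0.00365) and the early response gene Ier3 by 0.35 ± 0.08 (limma adjusted p = 0.0208).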
